A study of Mus musculus with 12 samples.

Results

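The genes described here encode 10 inflammatory mediators of the lung injured by lipopolysaccharide (LPS): the cytokines Il6, Tnf, Il1a, Il1b, Il12b, Il17a and Osm, the colony-stimulating factors Csf2 and Csf3, and Nos2, the inducible nitric oxide synthase. They were chosen by name, and each symbol was found once among the 55414 genes of the table. The comparison asked whether their transcripts differed in injured lungs when B cells could not make IL-10.

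Whole-lung RNA was sequenced from 12 C57BL/6J mice, all of which had received 50 µg of LPS, the cell wall component of Gram-negative bacteria used to induce acute lung injury, and whose lungs were taken on day 4. In 6 of them, the IL-10 B-KO mice, both copies of Il10 were floxed and Cre was driven by Mb1, the gene for the B cell receptor subunit Cd79a, so that deletion starts early in the B cell lineage. The other 6, the IL-10 B-WT mice, were their controls, and the sources used here do not give their floxed or Cre alleles or the age of the animals. No lung without LPS was analyzed here, so that all values are levels during injury and not responses to LPS. The methods of the injury model describe lavage of the airways before the lungs were excised, but do not state it for the sequenced lungs. If those were lavaged, cells in the lavage fluid are not in these values. Values are TPM, an abundance unit that corrects for transcript length and gives every library about the same total. The totals here ran from 991646 to 994430 TPM, and the depth of each library is unknown from them.

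The targeted gene was near 0 in all lungs. Il10 lay between 0 and 0.88 TPM in IL-10 B-WT (median 0.29) and between 0 and 0.58 TPM in IL-10 B-KO (median 0.235), and the groups overlapped (two-sided exact permutation test on log2(TPM + 1), p = 0.745, n = 6). The B cell gene Cd79a did separate the genotypes. It was at 15.3 TPM or more in every IL-10 B-WT lung (median 23.1, highest 258.6) and between 0 and 5.73 TPM in IL-10 B-KO (exact permutation test, p = 0.00216, n = 6, the smallest value 6 lungs against 6 allow). The widely used Mb1-Cre allele interrupts Cd79a itself, and the whole list of B cell markers was therefore read beside it. The 7 B cell markers summed to 67.1 to 762 TPM in IL-10 B-WT. For IL-10 B-KO the sum was 74.8 TPM in replicate 2, 54.7 TPM in replicate 6 and 8.93 to 13.8 TPM in the remaining 4. Loss of B cells and loss of IL-10 from B cells therefore cannot be told apart in these lungs, and in whole tissue fewer cells of a type and less RNA per cell cannot be told apart either.

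A pair of libraries stood apart from their genotype across the whole table. IL-10 B-WT replicate 1 had a mean Spearman's rho across genes of 0.877 with the other IL-10 B-WT lungs and of 0.944 with the IL-10 B-KO lungs. IL-10 B-KO replicate 2 had a mean rho of 0.909 with its own genotype and of 0.925 with IL-10 B-WT. Each of the other 10 libraries was nearer to its own genotype. Cd79a, at 15.3 TPM in IL-10 B-WT replicate 1 and at 4.35 TPM in IL-10 B-KO replicate 2, lay outside the range of the other genotype in both. Over the whole B cell list, however, 4 of the 7 markers of the first lay within the range of the other genotype, and so did 6 of the 7 markers of the second. Immunoglobulin genes summed to 2464 TPM in the first, the lowest of IL-10 B-WT, and to 648 TPM in the second, the highest of IL-10 B-KO. IL-10 B-WT replicate 5, though nearer to its own genotype, stood apart in other ways. It had 13845 genes at 1 TPM or more, against 14831 or more in the other libraries, the lowest array weight of the 12 (0.157), and the lowest value of its genotype for 7 of the 10 cytokine genes, ties included. Results are therefore given with all 12 lungs, with the main changes seen without these lungs. Each lung was left out in turn, but these were singled out after the data were seen, in part from the values of these genes. Counts and p-values without them show how far a result depends on a lung and carry no test.

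As background, LPS is sensed by Toll-like receptor 4 on macrophages and epithelial cells, which switch on NF-κB and MAP kinase signaling and transcribe Tnf, the IL-1 genes and Il6 within hours. TNF and IL-1 act on endothelium and epithelium to admit neutrophils, the colony-stimulating factors prolong the survival of granulocytes and macrophages, and IL-17A from T cells and innate lymphocytes increases the output of neutrophil chemoattractants. IL-10 acts through STAT3 in macrophages and restrains transcription of most of these genes, and their decline belongs to the resolution of lung injury.

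Higher median levels were found in IL-10 B-KO for 9 of the 10 genes, all but Il17a. IL-10 B-WT replicate 1 was the highest of all 12 lungs for 7 of the 10, Il17a included, and none of the 10 separated the genotypes. On the log2(TPM + 1) scale the mean was higher in IL-10 B-KO for 9 of 10 genes, with a median difference of 0.87, where 63.2% of all genes tested had higher means, and on the linear TPM scale for 7 of 10. Il17a was lower on both scales, and the linear means of Tnf and Il12b were lower as well. Of all 31629 genes above 0 in any lung, 17193 had higher log2 means in IL-10 B-KO. The share of all genes with higher medians or linear means was not counted. With IL-10 B-WT replicate 5 left out, the log2 mean was higher for 8 of 10 genes, with a median difference of 0.67, and the share of all genes tested with higher means was 47.2%. The 7 genes with at least 1 TPM in at least 6 libraries were tested with limma among 15148 genes, and the 3 others, Il12b, Csf3 and Il17a, were under this filter. None of the 7 passed an adjusted p of 0.05 with an absolute log2 fold change of 1, a rule met by 75 genes (0.495% of those tested), 4 of them higher in IL-10 B-KO (0.0264%) and 71 lower. At an unadjusted p of 0.05 limma called 1 of the 7, Osm, where 6.83% of all genes tested were called and higher in IL-10 B-KO, a share that ran, with any 1 lung left out, from 3.14% (IL-10 B-WT replicate 5) to 18.0% (IL-10 B-WT replicate 1). The median difference over all genes tested was 0.10 on the log2(TPM + 1) scale, or -0.019 without IL-10 B-WT replicate 5. The values of 0.87 and 0.67 given above are over all 10 cytokine genes, the 3 under the filter included. By exact permutation, 0 of the 10 genes had an unadjusted p of 0.05 or less, where 5.39% of all genes tested did and were higher in IL-10 B-KO.

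These counts turned on IL-10 B-WT replicate 1, which held the highest value of its genotype for all 10 genes. Its 10 genes summed to 615 TPM, against 13.7 to 69.8 TPM in the other IL-10 B-WT lungs. In IL-10 B-KO the sum was 39.7 TPM in replicate 2 and 98.6 to 421 TPM in the other lungs, with replicate 5 at the top. Without IL-10 B-WT replicate 1, 8 of the 10 genes had an exact permutation p of 0.05 or less, all but Il12b and Il17a, where 17.6% of all genes tested did and were higher in IL-10 B-KO. All 7 genes tested in limma then had an unadjusted p of 0.05 or less, where 18.0% of all genes tested were called and higher in IL-10 B-KO. Il6 and Il1a then did not overlap between genotypes, where 1.31% of all genes tested did so with higher values in IL-10 B-KO, against 0.0924% with 12 lungs. In limma, Il1a and Nos2 then passed the threshold with the fold rule, beside 2.37% of genes tested that were called and higher in IL-10 B-KO. Without IL-10 B-KO replicate 2 alone, Csf2 and Osm had an exact permutation p of 0.05 or less, where 9.36% of all genes tested did and were higher in IL-10 B-KO. Leaving out any 1 of the other 10 lungs brought no gene to that level. Without the pair of libraries nearer to the other genotype, 8 of 10 genes did not overlap, beside 9.12% of all genes tested, which were also higher in IL-10 B-KO, and nothing is read from that count.

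**Figure D1:**
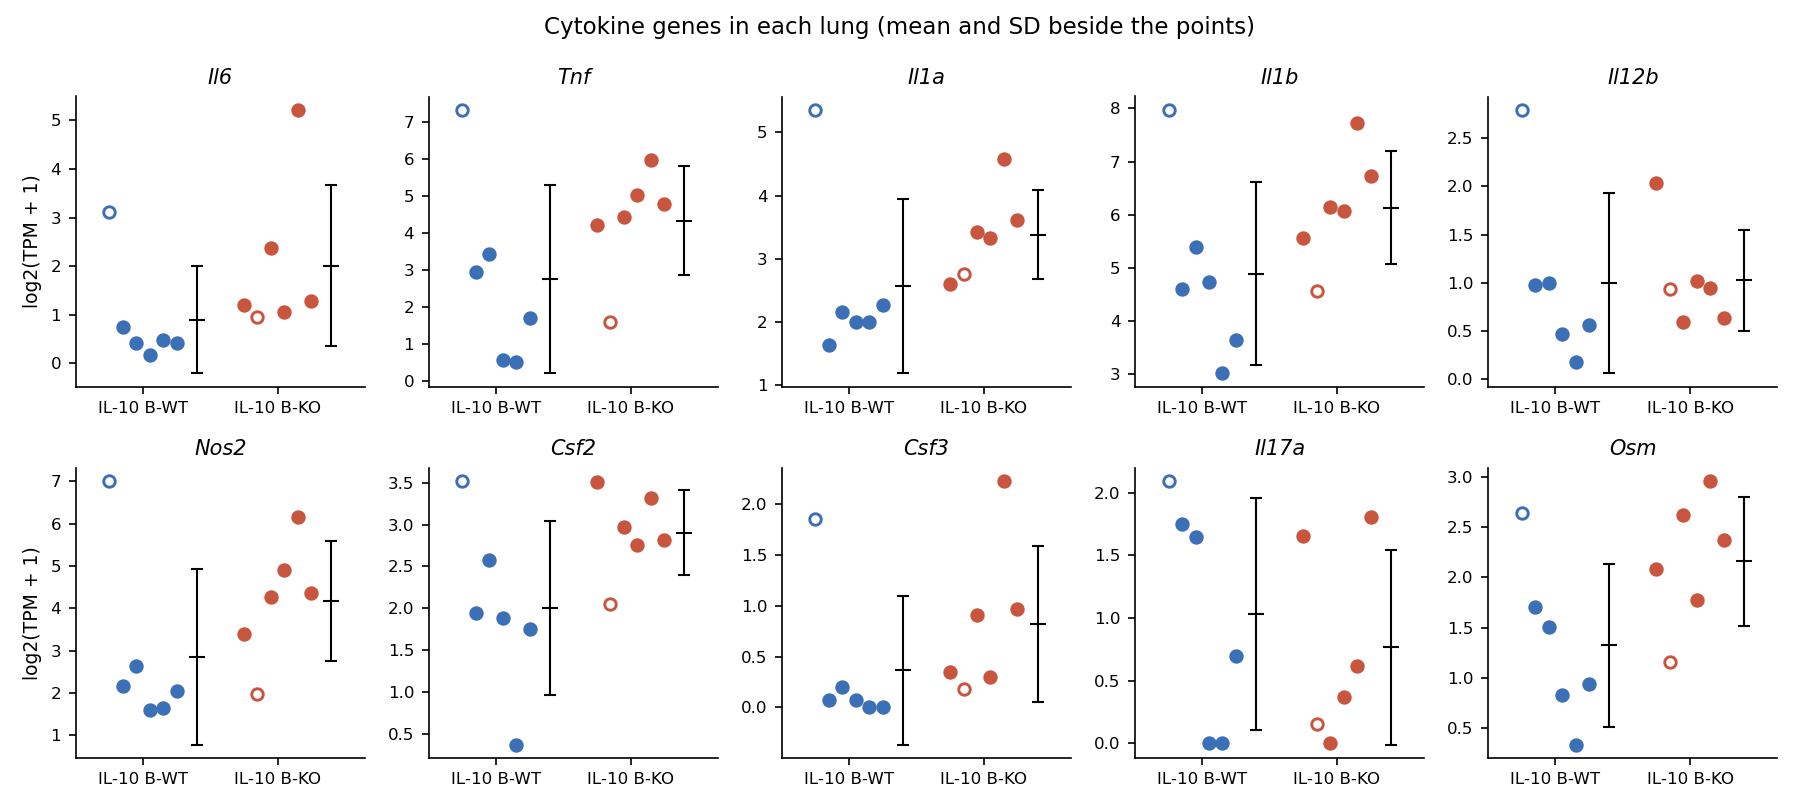
Level of each of the 10 genes in each lung as log2(TPM + 1), with IL-10 B-WT in blue and IL-10 B-KO in red, ordered by replicate number, and the mean and SD of 6 lungs beside them; open circles mark IL-10 B-WT replicate 1 as well as IL-10 B-KO replicate 2. The open blue circle is the highest of its genotype in all 10 panels, and each panel has its own scale.

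Il1b (ENSMUSG00000027398, chromosome 2, 129364570 to 129371139, minus strand in GRCm38) encodes IL-1β, a precursor that caspase-1 cleaves before release. It held the highest TPM of the 10 genes in every lung. In IL-10 B-WT it ranged from 7.06 to 250.8 TPM with a median of 24.4, and in IL-10 B-KO from 22.6 to 209.6 TPM with a median of 68.0. The top value belonged to IL-10 B-WT replicate 1, the next lung of that genotype was at 40.8 TPM, and every IL-10 B-KO lung but replicate 2 was above it. The difference was 1.24 ± 0.72 (SE) on the log2(TPM + 1) scale (limma adjusted p = 0.477; exact permutation p = 0.169, n = 6). With 1 lung left out it ran from 0.86 (IL-10 B-WT replicate 5) to 1.85, the latter without IL-10 B-WT replicate 1.

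Il1a (ENSMUSG00000027399, chromosome 2, 129299610 to 129309972, minus strand) lies beside Il1b and encodes IL-1α, which is active without cleavage and is released by dying cells. It ranged from 2.10 to 40.1 TPM in IL-10 B-WT (median 3.22) and from 5.03 to 22.8 TPM in IL-10 B-KO (median 9.39). The other 5 IL-10 B-WT lungs, at 2.10 to 3.81 TPM, lay close together and below all 6 IL-10 B-KO lungs, replicate 2 included. The log2 difference was 0.81 ± 0.56 (SE) with a limma adjusted p of 0.534 (exact permutation p = 0.245, n = 6). Leaving out 1 lung gave 0.57 (IL-10 B-KO replicate 5) to 1.37 (IL-10 B-WT replicate 1). Over 20 settings the limma adjusted p of Il1a ran from 0.0359, without the latter lung, to 0.799.

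Tnf (ENSMUSG00000024401, chromosome 17, 35199381 to 35202007, minus strand) encodes the cytokine that activates endothelium early in LPS injury. Its values spread more than those of the IL-1 genes, from 0.42 to 161.3 TPM in IL-10 B-WT (median 4.54) and from 2.01 to 61.7 TPM in IL-10 B-KO (median 23.6). IL-10 B-WT replicates 4 and 5 were at 0.48 and 0.42 TPM, and 5 of 6 IL-10 B-KO lungs were at 17.6 TPM or more. The direction depended on the scale. The mean TPM was 30.2 ± 64.3 (SD, n = 6) for IL-10 B-WT against 26.7 ± 19.9 for IL-10 B-KO, whereas the log2 difference was 1.58 ± 1.04 (SE) in favor of IL-10 B-KO (limma adjusted p = 0.521; exact permutation p = 0.225). Without IL-10 B-WT replicate 1, whose 161.3 TPM made up most of that mean, the IL-10 B-WT mean was 3.98 TPM and the log2 difference 2.50, the highest with 1 lung left out, and the lowest was 1.13 (IL-10 B-WT replicate 5).

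Nos2 (ENSMUSG00000020826, chromosome 11, 78920787 to 78960254, plus strand) encodes the enzyme that makes nitric oxide in activated macrophages, epithelium and neutrophils. It followed Tnf over the lungs, with a Pearson's r of 0.96 and a Spearman's rho of 0.99 over 12 lungs, 0.95 within IL-10 B-WT and 0.96 within IL-10 B-KO for Pearson's r. In IL-10 B-WT, Nos2 was at 127.9 TPM in replicate 1 and between 2.03 and 5.21 TPM in the others. In IL-10 B-KO it was at 2.95 TPM in replicate 2 and between 9.48 and 70.2 TPM in the others. With all lungs the log2 difference was 1.32 ± 0.89 (SE) (limma adjusted p = 0.525; exact permutation p = 0.227, n = 6). The difference with 1 lung left out ran from 0.93 (IL-10 B-KO replicate 5) to 2.15 (IL-10 B-WT replicate 1). Over 20 settings the limma adjusted p of Nos2 ran from 0.0478, without the latter lung, to 0.798.

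Il6 (ENSMUSG00000025746, chromosome 5, 30013114 to 30019981, plus strand) encodes the cytokine that drives the acute phase response through gp130 and STAT3. It was low on day 4. The IL-10 B-WT lungs were at 0.13 to 0.68 TPM apart from replicate 1 at 7.64 TPM, and the IL-10 B-KO lungs at 0.93 to 4.15 TPM apart from replicate 5 at 36.3 TPM. The 5 lower IL-10 B-WT lungs were thus all below the lowest IL-10 B-KO lung. The log2 difference of 1.12 ± 0.71 (SE), which understates the difference of a gene at this level, had an exact permutation p of 0.197 (n = 6). It was 1.56 without IL-10 B-WT replicate 1, while leaving out IL-10 B-KO replicate 5 gave 0.48.

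Osm (ENSMUSG00000058755, chromosome 11, 4236420 to 4241026, plus strand) encodes oncostatin M, a gp130 cytokine made by neutrophils and macrophages. It had the smallest limma p of the 7 genes tested. Osm ranged from 0.26 to 5.24 TPM in IL-10 B-WT (median 1.37) and from 1.23 to 6.78 TPM in IL-10 B-KO (median 3.70). Only the IL-10 B-WT replicate 1 value lay among the higher IL-10 B-KO lungs, and 5 of 6 IL-10 B-KO lungs were above the IL-10 B-WT median. The log2 difference was 0.83 ± 0.38 (SE), with a limma unadjusted p of 0.0471, an adjusted p of 0.388 and an exact permutation p of 0.0779 (n = 6). The difference lay between 0.64 and 1.10 with any 1 lung left out. The unadjusted limma p ran from 0.00567 without IL-10 B-WT replicate 1 to 0.116 without IL-10 B-WT replicate 5, and it was over 0.05 after leaving out IL-10 B-WT replicate 3, 4, 5 or 6, or IL-10 B-KO replicate 1, 3, 5 or 6.

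The colony-stimulating factors differed from each other in level. Csf2 (ENSMUSG00000018916, chromosome 11, 54247271 to 54249667, minus strand) encodes GM-CSF, a growth factor of alveolar macrophages and granulocytes. It ranged from 0.29 to 10.5 TPM in IL-10 B-WT (median 2.76) and from 3.14 to 10.4 TPM in IL-10 B-KO (median 6.46). All 6 IL-10 B-KO lungs were above the IL-10 B-WT median, and IL-10 B-WT replicates 1 and 3 were the lungs that overlapped them. The log2 difference was 0.90 ± 0.42 (SE), with a limma adjusted p of 0.407 and an exact permutation p of 0.0801 (n = 6). It was 1.20 without IL-10 B-WT replicate 1, and leaving out replicate 5 of that genotype gave 0.57.

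Csf3 (ENSMUSG00000038067, chromosome 11, 98701263 to 98703629, plus strand) encodes G-CSF, which releases neutrophils from the bone marrow. It was under 1 TPM in 10 of the 12 lungs. IL-10 B-WT lungs were at 0 to 0.15 TPM, with replicate 1 at 2.61 TPM, and IL-10 B-KO lungs at 0.13 to 0.96 TPM, with replicate 5 at 3.67 TPM. The log2 difference was 0.45 (exact permutation p = 0.323, n = 6). It was 0.75 without IL-10 B-WT replicate 1, while leaving out IL-10 B-KO replicate 5 gave 0.17. At these levels the values were rounded to 2 decimals and several lungs were near the lowest value listed.

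Il12b and Il17a, which belong to the T cell axis, had the log2 differences of smallest size among the 10 genes. Il12b (ENSMUSG00000004296, chromosome 11, 44400063 to 44414033, plus strand) encodes the p40 subunit that IL-12 and IL-23 share. Of the IL-10 B-WT lungs, 5 were between 0.13 and 1.00 TPM and replicate 1 was at 5.95 TPM. In IL-10 B-KO, 5 lungs were between 0.51 and 1.02 TPM and replicate 1 was at 3.10 TPM. The log2 difference of 0.03 was within the spread of the lungs (exact permutation p = 0.896, n = 6), and its sign turned under centring on the median and without any 1 of 4 lungs.

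Il17a (ENSMUSG00000025929, chromosome 1, 20730905 to 20734496, plus strand) encodes IL-17A, the product of γδ T cells, Th17 cells and type 3 innate lymphocytes. It was listed at 0 in IL-10 B-WT replicates 4 and 5 and in IL-10 B-KO replicate 3. IL-10 B-WT replicates 1, 2 and 3 were at 3.27, 2.37 and 2.13 TPM, and IL-10 B-KO replicates 1 and 6 at 2.15 and 2.49 TPM, so that each genotype held both high and low lungs. The log2 difference was -0.27 (exact permutation p = 0.600, n = 6). It lay between -0.47 and -0.05 with any 1 lung left out, and was 0.07 without the pair of libraries nearer to the other genotype. IL-10 B-KO replicate 5, the highest of all 12 lungs for Il6, Csf3 and Osm, was at 0.53 TPM of Il17a.

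By median TPM over 12 lungs the order was Il1b (43.4), Tnf (13.8), Nos2 (7.35), Il1a (5.38), Csf2 (5.34), Osm (2.34), Il6 (1.00), Il12b (0.915), Il17a (0.575) and Csf3 (0.190). Il1b was above Tnf and Csf2 above Osm in 12 of 12 lungs. The other neighbors changed places between lungs, with the higher gene of the pair above the next in 7 to 9 of 12. In IL-10 B-WT, Il17a ranked above Il6 by median (1.375 against 0.365 TPM) and was nearly level with Osm (1.37 TPM). In IL-10 B-KO, Il17a was the lowest of the 10.

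**Figure D2:**
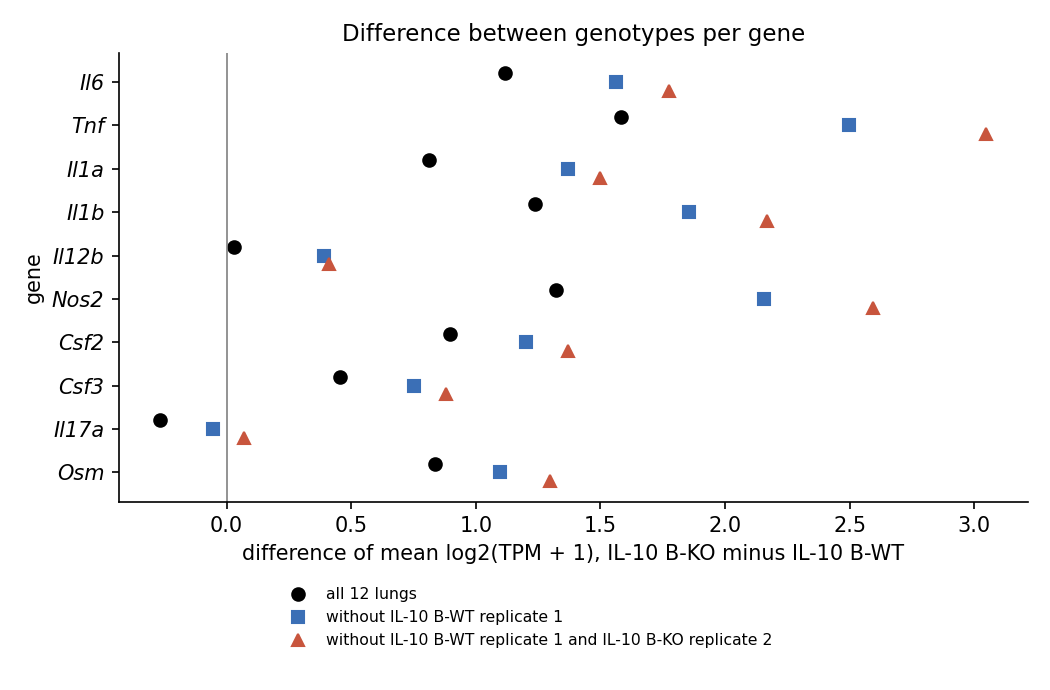
Difference between genotypes in mean log2(TPM + 1) for each of the 10 genes, IL-10 B-KO minus IL-10 B-WT, with all 12 lungs (circles), without IL-10 B-WT replicate 1 (squares) and without that lung and IL-10 B-KO replicate 2 (triangles). Tnf goes from 1.58 to 2.50 and 3.05, while Il12b and Il17a stay nearest to 0; squares and triangles carry no test.

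Receptors of these mediators were measured as the next step of the pathway. Of 16 genes, 15 were tested, and 13 had higher and 2 lower means in IL-10 B-KO, with a median log2 difference of 0.71. None passed the adjusted threshold in limma, and 5 had an unadjusted p of 0.05 or less, 4 higher and 1 lower. Of all 15148 genes tested, 63.2% had higher means. An unadjusted p of 0.05 or less was reached by 1899 of them, and 1034 of these were higher (6.83% of all). The receptor gene called and lower was Lifr, the receptor of leukemia inhibitory factor, through which mouse oncostatin M can also signal. Lifr had the smallest p of the list. Lifr was between 16.5 and 25.3 TPM in IL-10 B-WT and between 9.35 and 17.6 TPM in IL-10 B-KO, and only IL-10 B-KO replicate 2 was above the lowest IL-10 B-WT lung, replicate 1 (log2 difference -0.81 ± 0.17 (SE), limma adjusted p = 0.0664).

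The higher receptors included those borne by neutrophils and macrophages. Il1r2, the decoy receptor that binds IL-1 without signaling, was between 0.85 and 36.6 TPM in IL-10 B-WT (median 4.13) and between 4.46 and 121.0 TPM in IL-10 B-KO (median 37.8), with a log2 difference of 2.38 ± 0.80 (SE) (limma adjusted p = 0.292). Csf3r, the G-CSF receptor of neutrophils, had medians of 34.5 and 154.7 TPM, a log2 difference of 1.48 ± 0.58 (SE) and a limma adjusted p of 0.345, and it was also 1 of the 12 neutrophil markers. Without IL-10 B-WT replicate 1, Il1r2, Csf3r and Tnfrsf1b, the inducible TNF receptor, passed the fold rule in limma, beside 2.37% of all genes tested.

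Genes that hold these cytokines in check were not called either. Of 10 inhibitors and feedback regulators, 7 had higher and 3 lower means in IL-10 B-KO (median log2 difference 0.69), beside 63.2% of all genes tested with higher means. In limma 0 had an unadjusted p of 0.05 or less, beside 6.83% called and higher over all genes tested, and 0 passed after adjustment. Il1rn, the IL-1 receptor antagonist, came nearest. In IL-10 B-WT it was at 253.4 TPM in replicate 1 and between 1.80 and 42.4 TPM in the others. In IL-10 B-KO it was at 6.57 TPM in replicate 2 and between 71.5 and 190.0 TPM in the others (log2 difference 2.13 ± 1.03 (SE), limma adjusted p = 0.417). Socs3, the STAT3-induced inhibitor of gp130 signaling, had medians of 37.0 and 85.7 TPM with a log2 difference of 1.21 ± 0.64 (SE) and a limma adjusted p of 0.448. Dusp1, a phosphatase of MAP kinases, had a log2 difference of -0.49 ± 0.29 (SE), with medians of 151.7 and 95.8 TPM (limma adjusted p = 0.477). Without IL-10 B-WT replicate 1, 7 of the 10 had an unadjusted limma p of 0.05 or less, all higher in IL-10 B-KO and beside 18.0% of all genes tested, and 0 passed the adjusted threshold.

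Family members and partner subunits were mixed. Of 14 genes, 10 were tested, 6 with higher and 4 with lower means (median log2 difference 0.35), and limma gave 2 at an unadjusted p of 0.05, both higher and beside 6.83% of all genes tested, and 0 after adjustment. Nos3, the endothelial nitric oxide synthase, was between 6.81 and 18.0 TPM in IL-10 B-WT and between 12.5 and 34.3 TPM in IL-10 B-KO (log2 difference 0.68 ± 0.27 (SE), limma adjusted p = 0.350). Ebi3, the subunit of IL-27 and IL-35, had medians of 7.13 and 29.3 TPM (log2 difference 1.34 ± 0.59 (SE), limma adjusted p = 0.380), and it passed the fold rule without IL-10 B-WT replicate 1, beside 2.37% of all genes tested. Lta, which encodes lymphotoxin-α and is a neighbor of Tnf on chromosome 17, had a lower mean in IL-10 B-KO. It was highest in IL-10 B-WT replicate 2, at 10.9 TPM, the lung with the most B cell RNA, and between 0.38 and 1.91 TPM in IL-10 B-KO (log2 difference -0.73 ± 0.44 (SE), limma adjusted p = 0.489). Il23a, the partner of Il12b in IL-23, and Il17f, the neighbor of Il17a, were under the filter, with highest values of 1.37 and 2.07 TPM.

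The genes listed for the processing of IL-1 and TNF all had higher means in IL-10 B-KO, 8 of 8 with a median log2 difference of 0.74, beside 63.2% of all genes tested. In limma 1 had an unadjusted p of 0.05 or less, beside 6.83% of all genes tested, and 0 passed after adjustment. Pycard, the adaptor of the inflammasome, had medians of 19.2 and 56.8 TPM and a log2 difference of 1.35 ± 0.56 (SE) (limma adjusted p = 0.357). Nlrp3, an inflammasome sensor, was at 31.7 TPM in IL-10 B-WT replicate 1, between 0.86 and 4.25 TPM in the rest of that genotype, and between 3.11 and 20.9 TPM in IL-10 B-KO (log2 difference 1.14 ± 0.60 (SE), limma adjusted p = 0.449). Casp4, the sensor of LPS in the cytosol, had medians of 14.3 and 30.6 TPM (log2 difference 0.95 ± 0.52 (SE), limma adjusted p = 0.460). Without IL-10 B-WT replicate 1, 8 of 8 had an unadjusted limma p of 0.05 or less, beside 18.0% of all genes tested, and 1, Nlrp3, passed the fold rule, beside 2.37%.

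Genes known to respond to these cytokines were higher on average as well. Of 20, 18 were tested and all 18 had higher log2(TPM + 1) means in IL-10 B-KO, with a median difference of 0.79. The chemokine genes Cxcl5 (6.71 TPM for IL-10 B-WT against 6.09 TPM) and Ccl20 (13.8 against 9.10 TPM) had lower linear means, and the log2 mean of Ccl20 was lower as well without IL-10 B-WT replicate 5. For the list, limma gave 5 at an unadjusted p of 0.05, beside 6.83% of all genes tested, and 0 after adjustment. The share of all genes tested with higher means was 63.2%, or 47.2% without IL-10 B-WT replicate 5. Saa3, an acute phase apolipoprotein made in the inflamed lung, had the widest range. In IL-10 B-WT it was at 6884 TPM in replicate 1 and between 4.48 and 439.8 TPM in the others. In IL-10 B-KO it was at 34.8 TPM in replicate 2 and between 2400 and 8685 TPM in the others. Its log2 difference was 4.74 ± 1.75 (SE) (limma adjusted p = 0.328), and it was the 1 gene of the list past the fold rule without IL-10 B-WT replicate 1, beside 2.37% of all genes tested.

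Lcn2, which encodes an iron-scavenging protein of neutrophils and epithelium, had medians of 442.0 and 2867 TPM with a log2 difference of 2.51 ± 1.03 (SE) (limma adjusted p = 0.356). Hp, the hemoglobin scavenger haptoglobin, differed less, with medians of 1045 and 1659 TPM and a log2 difference of 0.77 ± 0.33 (SE) (limma adjusted p = 0.373). For Saa3 and Lcn2, IL-10 B-WT replicate 1 lay within the IL-10 B-KO range and IL-10 B-KO replicate 2 within that of IL-10 B-WT.

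Markers of the cells that make these cytokines were listed for the same lungs, with genes counted as higher or lower by their mean log2(TPM + 1). By that measure 63.2% of all genes tested were higher in IL-10 B-KO, or 47.2% without IL-10 B-WT replicate 5, beside every marker list. The neutrophil list was higher in IL-10 B-KO for 12 of 12 genes, or for 11 without IL-10 B-WT replicate 1 or by mean TPM, where Mpo, the myeloperoxidase gene, was lower (2.17 TPM for IL-10 B-WT against 1.93 TPM). Its sum ran from 399.6 to 2587 TPM in IL-10 B-WT (median 908.7) and from 1182 to 7920 TPM in IL-10 B-KO (median 3481), with S100a9 the most abundant (exact permutation p = 0.0238 for the log2 sum, n = 6, unadjusted among 14 lists). S100a9 and S100a8 held most of this sum, with means of 504 and 300 of 1113 TPM in IL-10 B-WT. In IL-10 B-KO their means were 1877 and 1111 of 3789 TPM, so that the p rests mainly on them. The highest neutrophil sum belonged to IL-10 B-KO replicate 5, and the highest in IL-10 B-WT to replicate 1. The macrophage list was higher for 12 of 12 genes, or for 11 without IL-10 B-WT replicate 1 or by mean TPM, where Fabp4, a fatty acid-binding protein gene, was lower (43.7 TPM for IL-10 B-WT against 34.8 TPM). It had sums of 242.5 to 1901 TPM and 681.4 to 3393 TPM, Chil3 the most abundant and an exact permutation p of 0.0281 (n = 6). The monocyte list was higher for 8 of 8, with sums of 130.4 to 2298 TPM and 289.3 to 2681 TPM, Ly6c2 the most abundant and an exact permutation p of 0.0671 (n = 6). None of these 32 markers was at 0 in any lung. The monocyte sum of IL-10 B-WT replicate 1 was 2298 TPM, against 572.1 TPM or less in its genotype, and that of IL-10 B-KO replicate 2 was 289.3 TPM, against 942.0 TPM or more. The lungs with the highest sums of their genotype for neutrophil and monocyte markers, IL-10 B-WT replicate 1 together with IL-10 B-KO replicate 5, were also those with the highest sums of the 10 cytokine genes. For macrophage markers the highest IL-10 B-KO sum was that of replicate 3, at 3393 TPM, with replicate 5 at 3337 TPM. Across genotypes the orders differed. IL-10 B-WT replicate 1, with the highest cytokine sum (615 TPM), had a neutrophil sum of 2587 TPM. IL-10 B-KO replicates 3 and 6 had neutrophil sums of 4813 and 5200 TPM and cytokine sums of 136 and 178 TPM. The part of these cells in the differences was not tested.

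The lists of other cell types were mixed, beside 63.2% of all genes tested with higher means, or 47.2% without IL-10 B-WT replicate 5. The B cell list was lower for 7 of 7 genes (Cd79b the most abundant; exact permutation p = 0.00649, n = 6), and Cd79a, Cr2 and Pax5 were among those at 0 in at least 1 lung. T cell markers were higher for 4 of 8 genes, and for 0 without IL-10 B-WT replicate 5, with sums of 17.2 to 176.6 TPM and 30.6 to 186.7 TPM (Cd3g the most abundant; exact permutation p = 0.911, n = 6), and the list for γδ T and type 3 lymphoid cells, the known sources of Il17a, was higher for 4 and lower for 2 (Sox13 the most abundant; exact p = 0.491). NK cell markers were higher for 7 of 7, or for 6 without IL-10 B-WT replicate 5, with Gzma at the top (exact p = 0.455). Mast cell and basophil markers summed to 10.8 TPM at most, 5 of 6 were lower and Cpa3 led them (exact p = 0.0173). Dendritic cell markers, led by Ccr7, were lower for 5 of 7 (exact p = 0.106).

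Structural cells identified the tissue as lung in every library. Sftpc, the surfactant protein of type II alveolar cells, led the alveolar list. Of its 8 genes, 6 were higher, beside 63.2% of all genes tested. The alveolar sums were 3984 to 19933 TPM in IL-10 B-WT and 12818 to 23309 TPM in IL-10 B-KO (exact permutation p = 0.219, n = 6). The lowest sum was that of IL-10 B-WT replicate 5, and the next was 10396 TPM. Scgb1a1 led the airway list (3 of 4 genes lower; exact p = 0.106), Cldn5 the endothelial list (5 of 5 lower; exact p = 0.160) and Col3a1 the fibroblast list (3 of 5 lower; exact p = 0.504). Red cell genes, led by Hba-a2, were lower for 5 of 5 (exact p = 0.145), and their sum was lowest in IL-10 B-WT replicate 1, at 2958 TPM, and highest in IL-10 B-WT replicate 5, at 96325 TPM, the lung with the lowest sum of the 10 cytokine genes. Their part in the differences was not tested.

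**Figure D3:**
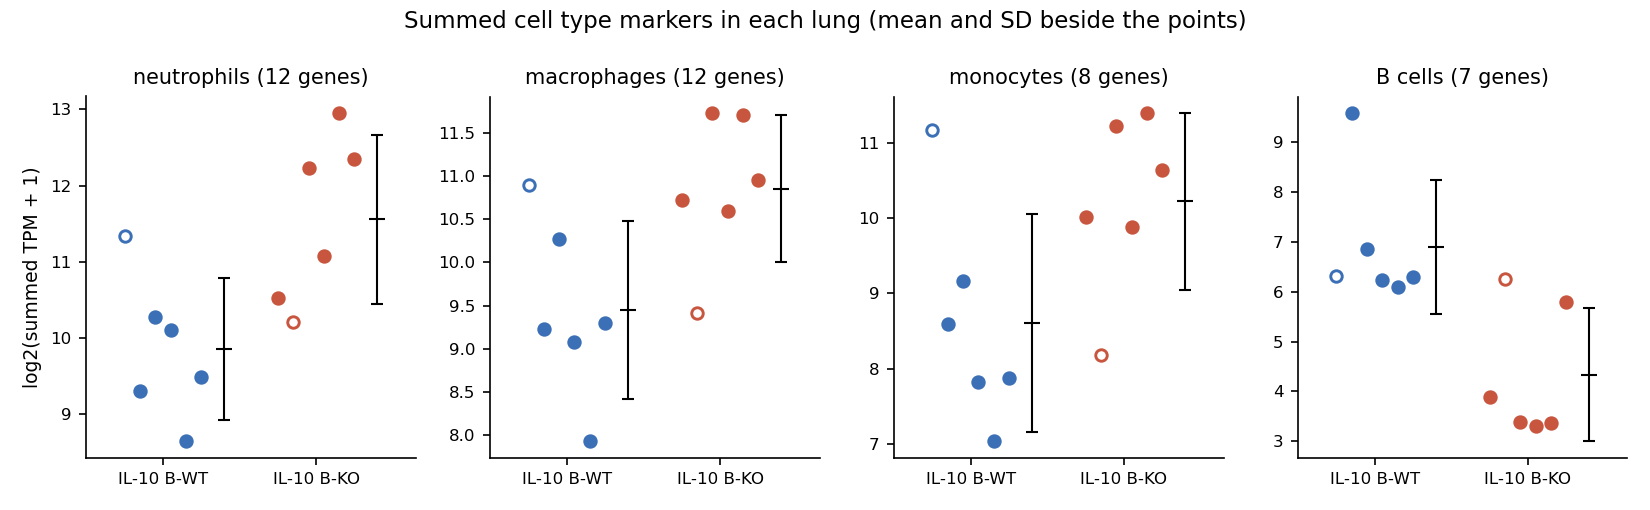
Summed TPM of neutrophil, macrophage, monocyte and B cell markers in each lung as log2(summed TPM + 1), with IL-10 B-WT in blue, IL-10 B-KO in red, the mean and SD of 6 lungs beside them, and open circles for IL-10 B-WT replicate 1 as well as IL-10 B-KO replicate 2. The monocyte sums of these lungs, 2298 and 289.3 TPM, lie within the range of the other genotype.

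The genes most like each cytokine gene were found by Pearson's r of log2(TPM + 1) over the 12 lungs among the genes tested, as a description without a test, since they are the highest of many and the lungs share the genotype and the same high lung. For Tnf they were Slc2a6, Tnfaip2 and Tifa, with r of 0.99, 0.98 and 0.98, and without the lungs farthest from the Tnf median, IL-10 B-WT replicates 1 and 5, r was 0.98, 0.97 and 0.97. Tnfaip2 and Tifa are known from TNF and NF-κB signaling. Il1b had Mxd1, Treml4 and Gm49368, each at 0.98, and Nos2 had Trim30c, Mxd1 and Slc7a11 at 0.98, 0.98 and 0.97, so that Mxd1, a partner of Max, was listed for both.

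Il1a was nearest to Mrgpra2b, Nampt and Creb5 (r of 0.98, 0.97 and 0.96). For Il6, Ptx3, which encodes a soluble pattern recognition protein, came first at 0.94, followed by Slfn3 at 0.94 and Hk1 at 0.93, and without IL-10 B-KO replicate 5 and IL-10 B-WT replicate 1 these were 0.86, 0.78 and 0.93. Csf2 had Psmg4, Plxnb2 and Clta, each at 0.98 or 0.99, and Osm had Galns, Arpc2 and Junb, each at 0.99. Junb encodes a subunit of AP-1. Spearman's rho was between 0.82 and 0.99 over these pairs.

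Among the 10 genes themselves, Il6 and Csf3 had an r of 0.95 over 12 lungs, and Il1a and Nos2 also of 0.95. Il17a had its lowest r with Il6, at 0.088, and with Il1a, at 0.23, and its highest with Il12b, at 0.66, and with Tnf, at 0.54. Within IL-10 B-WT its r was 0.92 with Osm and 0.88 with Tnf, and within IL-10 B-KO 0.18 and 0.25. The r of Il12b with Nos2 was 0.60 over 12 lungs, 0.26 without IL-10 B-WT replicate 1, 0.98 within IL-10 B-WT and -0.24 within IL-10 B-KO. Its r with Csf2 was 0.69 over 12 lungs, 0.69 without that lung, 0.87 within IL-10 B-WT and 0.49 within IL-10 B-KO.

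Promoter sequences from RefSeq (GRCm38.p6) were matched for 7 of the 10 genes, Il6, Tnf, Il1a, Il1b, Il12b, Csf2 and Il17a, and not for Nos2, Csf3 and Osm. In the 250 bases before the start, both strands were searched for TATAAA, for TGANTCA, the AP-1 motif, and for the κB motif of NF-κB in its decameric form. TATAAA was found in 4 of 7, Tnf, Il1a, Il1b and Il17a, against 12.4% of 32851 promoters of this length. The AP-1 motif was found in 3, Il6, Il1a and Il17a, against 6.75%, and the κB motif in Il6 alone, against 7.25%. Il12b and Csf2 held none of the 3 in this window. TATAAA lay between positions -32 and -24 in each of the 4 genes, counted back from -1 at the base before the start, and Il17a had it at the same place as Il1b. A match is a description of letters and not of a bound site.

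The 80 bases before the start are shown for 5 of these genes, the 4 with TATAAA and Il6 with the κB motif, with matches in capitals, 5′ to 3′ on the strand of the gene. The regions are chr5:30013034-30013113 (Il6, plus strand), chr17:35202008-35202087 (Tnf, minus strand), chr2:129309973-129310052 (Il1a, minus strand), chr2:129371140-129371219 (Il1b, minus strand) and chr1:20730825-20730904 (Il17a, plus strand). The AP-1 matches of Il6, at -249 to -243, and Il17a, at -244 to -238, lie outside them.
Il6: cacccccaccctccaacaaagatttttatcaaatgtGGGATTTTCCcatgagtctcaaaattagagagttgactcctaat
Tnf: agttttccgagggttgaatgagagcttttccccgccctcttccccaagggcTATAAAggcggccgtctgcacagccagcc
Il1a: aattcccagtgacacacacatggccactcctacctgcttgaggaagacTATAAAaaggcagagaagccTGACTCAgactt
Il1b: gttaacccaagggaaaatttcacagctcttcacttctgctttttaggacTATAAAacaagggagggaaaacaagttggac
Il17a: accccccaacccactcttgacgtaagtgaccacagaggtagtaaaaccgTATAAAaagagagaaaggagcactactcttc
The κB match of Il6 lies at -44 to -35, and the AP-1 match of Il1a at -12 to -6, after its TATAAA at -32 to -27.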

How the data were processed

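The 12 lungs (6 of the IL-10 B-WT and 6 of the IL-10 B-KO genotype) were analyzed from 1 table, in which the authors deposited TPM per gene and library, calculated with RSEM and rounded to 2 decimals. The submitters' processing notes also name fastp, HISAT and the build GRCm38.p5. Versions and the annotation release are not given in the sources used here. TPM keep no depth, so no count model, counting error or detection limit was used, and the precision rests on the spread between lungs. All values of a library share 1 total. No pair of libraries was identical.

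Log2(TPM + 1) was fitted with limma 3.58.1 in R 4.3.3 (lmFit, eBayes with a trend, with no term but genotype) over 15148 genes that had at least 1 TPM in at least 6 libraries, with Benjamini-Hochberg adjustment over all of them. Differential expression required an adjusted p of 0.05 or less and an absolute log2 fold change of 1 or more. Single values were compared by two-sided exact permutation of the lungs (Python 3.11.15, NumPy 2.4.6, pandas 2.3.3), unadjusted, for which 6 lungs against 6 allow a smallest p of 0.00216. Figures were drawn with matplotlib 3.10.9. Coordinates came from GENCODE release M21 (GRCm38), matched by gene ID for 52081 of 55414 genes, and promoters from RefSeq.

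The genes named were the 10 cytokine and effector genes, from each pathway list those past the threshold or else the 3 with the smallest unadjusted p, the most abundant gene of each marker list, the 3 genes most correlated with each tested cytokine gene, Il10 and Cd79a. Other genes were named after their values were seen: Tnfrsf1b, Il23a, Il17f, Mpo, Fabp4, Cxcl5, Ccl20 and the B cell markers at 0. The values of 1 B cell marker are not reported here on their own. The members and lists were chosen with earlier results of these data known. Other settings tried were log2(TPM + 0.1), fits over all genes above 0 in any lung or over those averaging 5 TPM, removal of 395 immunoglobulin genes (Jchain included) before rescaling, quantile normalization, centring on the median, array weights, a replicate block, no minimum fold change, and every lung left out in turn.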

Additional observations from a re-analysis of the deposited data

Results flagged for a closer look

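In 8 of 24 groups, the 10 cytokine genes, Il10 and Cd79a in each genotype, the highest lung was farther from the next than Dixon's 95% critical value for 6 samples allows relative to the range of the group, both on the log2(TPM + 1) scale. On the TPM scale the count was 12 of 24, with IL-10 B-WT replicate 1 the highest lung in 7 of them. Chance gives about 1 in 20 groups if values are normally distributed and groups independent. These groups share the same lungs, and normality was not tested, so that the counts carry no test. On the log2 scale IL-10 B-WT replicate 1 was that lung for 5 genes, with 7.64 TPM of Il6, 40.09 TPM of Il1a, 5.95 TPM of Il12b, 127.93 TPM of Nos2 and 2.61 TPM of Csf3. These 5 are values of 1 library and are not independent. In IL-10 B-KO, replicate 5 stood apart for Il6 at 36.33 TPM and replicate 1 for Il12b at 3.1 TPM. IL-10 B-WT replicate 2 stood apart for Cd79a at 258.64 TPM.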

How the results depend on the processing

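The count of DEGs, 75 with 12 lungs, was 27 after rescaling without immunoglobulin genes, 39 after quantile normalization, 36 after centring on the median, 6 without a filter, 318 with array quality weights, and 19 to 604 without 1 lung. It moved by over 1.5 times without IL-10 B-WT replicate 1 (604), 4 (38), 5 (23) or 6 (35), or IL-10 B-KO replicate 1 (19), 2 (116), 3 (33), 5 (19) or 6 (46). It was within 1.5 times the main count under the other settings run on 12 lungs, except for the replicate block with 45. Of 6 pairs of lungs with the same number, 0 deviated together (r over 0.1). The labels give no pairing beyond the number, and a low r cannot show that nothing else was shared. The cytokine genes past the threshold were 0 under every setting with 12 lungs and 0 to 2 without 1 lung. Those with an unadjusted limma p of 0.05 or less, 1 in the report, were 0 without a filter, with a mean TPM of at least 5 and after rescaling, 2 after quantile normalization and after centring, 6 with array weights, 1 with the replicate block, which was Csf2 and not Osm, and 0 to 7 without 1 lung. The share of all genes tested that were called and higher in IL-10 B-KO, 6.83% in the report, was 3.87% without a filter, 7.19% with a mean TPM of at least 5, 4.92% after rescaling, 10.3% after quantile normalization and after centring, 11.1% with array weights, 5.19% with the block, 3.14% to 18.0% without 1 lung and 21.7% without the pair named next. Leaving out IL-10 B-WT replicate 1 together with IL-10 B-KO replicate 2, chosen after seeing the data and in part from the values of these genes, gave 1492 DEGs, with 6 cytokine genes past the threshold and 7 at the unadjusted p, counts that carry no test. Il12b turned to -0.076 (log2) after centring and lay between -0.17 and 0.39 without 1 lung, and Il17a turned to 0.069 without both lungs. The cause was not tested for any of these. Centring shifted the median difference of all genes from 0.10 to -0.01, a shift of -0.11, quantile normalization shifted it to 0.01, and leaving out IL-10 B-WT replicate 5 gave -0.019. The signs of the other 9 genes held under both scalings. Counts of higher log2 means, untested genes included, moved in other lists too. Without IL-10 B-WT replicate 1, inhibitors went from 7 to 9 of 10 and family members from 8 to 9 of 14. T cell markers went from 4 to 5 of 8 and dendritic cell markers from 2 to 3 of 7. Without IL-10 B-WT replicate 5, receptors went from 14 to 13 of 16 and γδ T markers from 4 to 3 of 6. Dendritic cell markers then went from 2 to 1 and airway markers from 1 to 0 of 4. Depth limits the low values of Il6, Il12b, Csf3 and Il17a to an unknown degree.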
